A study of Rattus norvegicus with 60 samples.

Results

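Cortical inhibitory interneurons are known by the neuropeptides they release, by the calcium-binding protein parvalbumin and by the enzymes and transporter that make and package GABA. The genes followed here were the peptides Sst (somatostatin), Npy (neuropeptide Y), Vip (vasoactive intestinal peptide), Cck (cholecystokinin) and Cort (cortistatin), the calcium-binding protein Pvalb, the glutamate decarboxylases Gad1 and Gad2, and Slc32a1, the vesicular GABA transporter. Members were all probe sets of the deposited table whose platform annotation gave one of these symbols alone. This left 9 probe sets of 31042 and 8 of the 9 genes, among 14217 genes named by at least 1 probe set of the array. Gad1 had 2 probe sets. Cort had none of its own, because the 4 probe sets that listed it also listed other symbols, and no value is given for it.

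Frontal cortex was taken from 60 adult male Long-Evans rats (postnatal day 62 to 64 in the labels) 6 h after a single oral gavage, and RNA from each rat was hybridized to one Affymetrix array, without pooling. All rats received corn oil. For 12 rats it was given alone as vehicle, and in the others it carried deltamethrin at 0.3, 1 or 3 mg/kg or permethrin at 1, 10 or 100 mg/kg, with 8 rats at each dose. Both compounds are pyrethroid insecticides, which hold voltage-sensitive sodium channels open, and deltamethrin carries an α-cyano group that permethrin lacks. Values are log2 expression summaries, so that a difference of 1 is a doubling of signal. The question asked of each member was whether its mRNA differed between dosed rats and vehicle rats, whether it followed dose, and whether the compounds differed.

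Interneurons release GABA, the main inhibitory transmitter of the cortex, and separate populations express parvalbumin, somatostatin or vasoactive intestinal peptide. Parvalbumin cells fire fast and contact cell bodies, somatostatin cells mostly contact dendrites, and cells with vasoactive intestinal peptide largely inhibit other interneurons. Neuropeptide Y is found in part of the somatostatin cells and in neurogliaform cells, while cholecystokinin mRNA is also abundant in cortical pyramidal cells. The whole cortex piece was measured, so fewer cells of a type and less mRNA per cell cannot be told apart.

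Peptide genes are known targets of cyclic AMP and calcium signalling, and the rat somatostatin promoter is where the cyclic AMP response element was first described. The letters of the element are TGACGTCA, and TGACG is its first part, read on both strands and contained in the whole element. Among 33469 rat promoter windows in RefSeq (build GRCr8, 250 bases before to 50 after the annotated start), the whole element was present in 1.83% and TGACG in 21.2%. Windows were found for 8 of the 9 listed genes, and none for Cck. The whole element was found in Sst only, among these 8. TGACG was found in Sst, Vip, Pvalb, Cort and Slc32a1, and in none of the windows of Npy, Gad1 and Gad2. A match is a description of these letters, not a bound site. The 2 stretches shown are the peptide genes with a match on the array, on the plus strand, with the match in capitals. That of Sst (chr11:90461537-90461566) crosses the annotated start and that of Vip (chr1:44470372-44470401) lies before it.
Sst: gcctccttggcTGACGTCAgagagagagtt
Vip: gatcaccactgTGACGtctttcgaggagcc

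The members were bright on the array. The mean log2 value over 60 rats was 12.84 for Cck, 11.98 for the brighter Gad1 probe set (1368344_at), 11.14 for Npy, 11.07 for Sst, 10.51 for Slc32a1, 10.03 for Pvalb, 9.24 for Gad2, 9.23 for the second Gad1 probe set (1370760_a_at) and 8.89 for Vip. These levels belong to probe sets and do not order the genes by abundance. The members differed in how much they varied between rats. Over 60 rats the SD was 0.10 for both Npy and Cck, 0.21 for Sst, 0.26 and 0.29 for the Gad1 probe sets, 0.33 for Pvalb and Slc32a1, 0.35 for Vip and 0.48 for Gad2. The median SD over all probe sets was 0.18, so Npy and Cck were steadier than most probe sets and Gad2 varied more than 94.2% of them.

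Across the series, the arrays fell into 2 sets on their first principal components (58.0% and 10.8% of the variance). Set A held 24 arrays, replicates 1 to 3 of each dose and 1 to 6 of vehicle, and set B held the other 36. The labels name no batch. The set sizes equal those of both cohorts that the methods combine for the arrays, which were dosed on separate days, but no label assigns a rat to a cohort. Because vehicle had 6 of 12 rats in set A and each dose 3 of 8, values within the sets and with the set as a block are given beside the pooled ones, with the fuller account for Sst and Pvalb. No array repeated another, and the median log2 value of an array lay between 7.07 and 7.20. A single marker of the labelled tissue, Slc17a7, the vesicular glutamate transporter of cortical pyramidal cells, had a mean log2 value of 12.47. Penk, which is on both the striatal and the interneuron list used below, had 12.29. How much striatal tissue the pieces held, and its part in the member values, was not tested.

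No member passed the test against vehicle at any dose. In limma, 0 of the 9 member probe sets had an adjusted p under 0.05 in any of the 6 comparisons with vehicle, against 0% of all 31042 probe sets in each. The adjusted p of the members ranged from 0.961 upward. At an unadjusted p under 0.05, 2 of 54 member values passed, Npy at 1 mg/kg deltamethrin and Cck at 100 mg/kg permethrin. Over all probe sets the share past that threshold, low to high dose, was 0.751%, 2.24% and 1.36% for deltamethrin and 1.18%, 3.48% and 1.24% for permethrin. The member share, 3.70% of 54 values, is read against 1.71% over all probe sets and doses. In a limma F-test over the 7 groups every member had an adjusted p of 1. The median log2 difference over the 9 probe sets lay between -0.01 and 0.09 at the 6 doses, and the median over all probe sets lay between -0.01 and 0.01. All 6 comparisons share the same 12 vehicle rats, so they are not independent of each other.

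**Figure D1:**
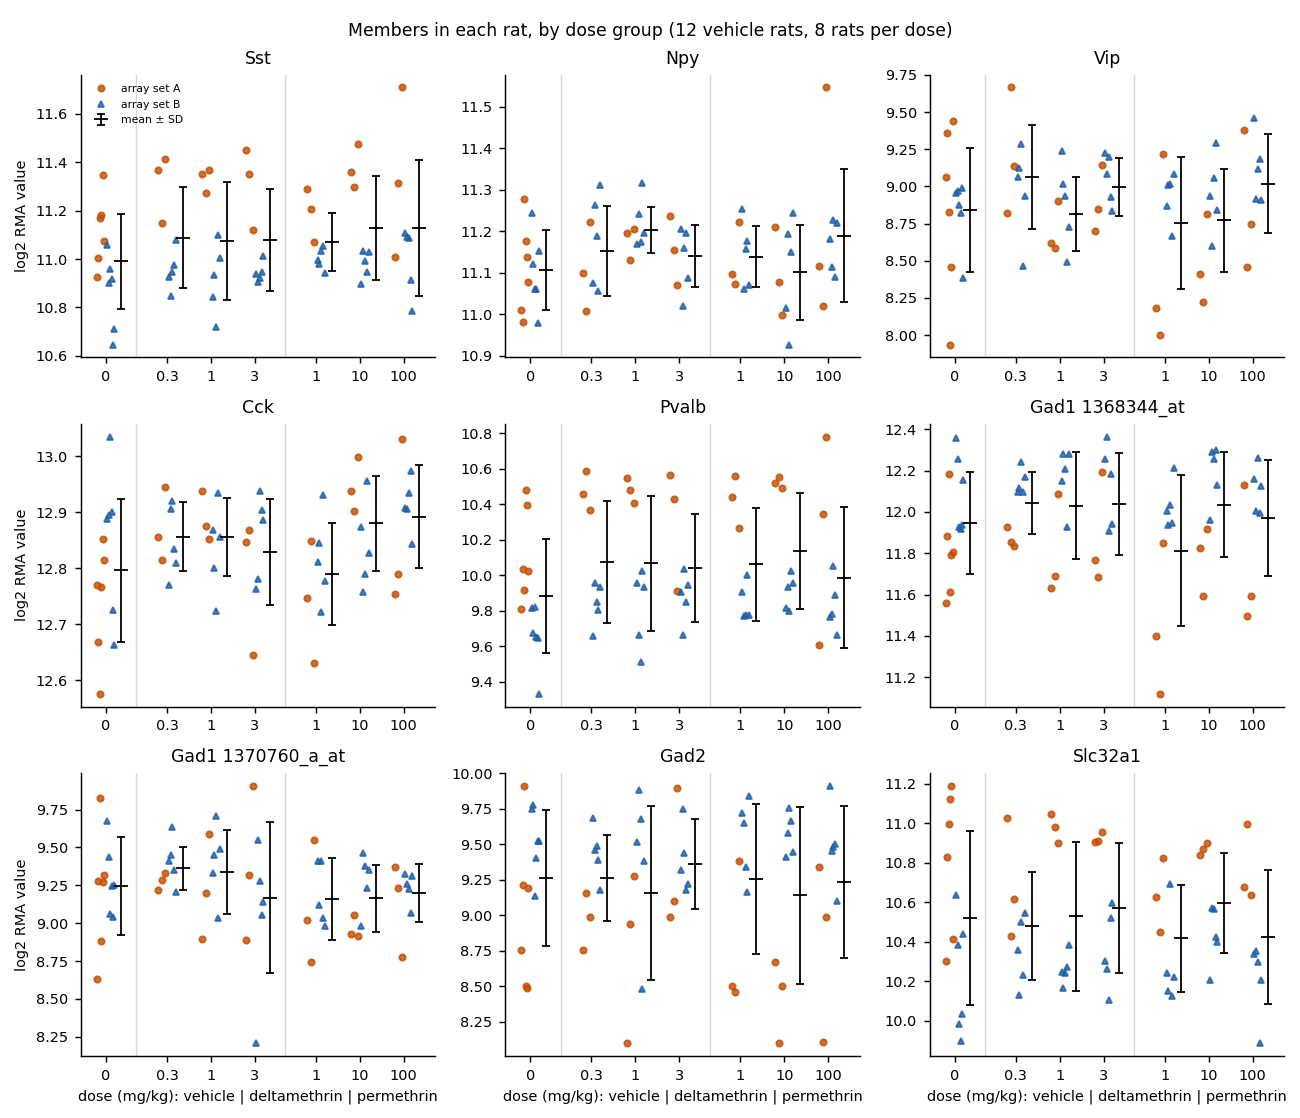
Log2 value of each member probe set in every rat, by dose in mg/kg, with vehicle at 0, then deltamethrin, then permethrin. Circles are rats of array set A, triangles rats of array set B, and bars the mean ± SD of a group (12 vehicle rats, 8 rats per dose). The groups overlap in every panel, while circles lie mostly above triangles for Sst, Pvalb and Slc32a1 and mostly below them for Gad1 (1368344_at) and Gad2.

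Among the peptides, Sst stood slightly above vehicle at every dose without passing the test. In vehicle rats the lowest, median and highest log2 values were 10.65, 10.98 and 11.35. At 0.3, 1 and 3 mg/kg deltamethrin the medians were 11.03, 11.05 and 10.98, with a lowest value of 10.72 and a highest of 11.45. At 1, 10 and 100 mg/kg permethrin the medians were 11.04, 11.03 and 11.09, with values from 10.78 to 11.71. Every dose group overlapped the vehicle group, and the means stood 0.08 to 0.14 above vehicle at all 6 doses. At 10 mg/kg permethrin, where 6 of the 8 Sst values exceeded the mean of the vehicle rats, the difference was largest, 0.14 (SE 0.10, 95% confidence interval -0.06 to 0.33, limma adjusted p = 0.961).

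Npy was one of the steadiest members. Its group means ran from 11.10 at 10 mg/kg permethrin to 11.20 at 1 mg/kg deltamethrin, with vehicle at 11.11 ± 0.10 (SD, n = 12). At 1 mg/kg deltamethrin the lowest, median and highest values were 11.13, 11.20 and 11.32, against 10.98, 11.10 and 11.28 in vehicle rats. All 8 rats at this dose were above the vehicle mean, and the groups still overlapped. The difference was 0.10 (SE 0.05, 95% confidence interval 0.00 to 0.19), which is 1.07-fold, with an unadjusted p of 0.0494 and an adjusted p of 1.00 in limma. It was 0.07 within array set A and 0.12 within array set B, and with the set as a block it no longer passed before adjustment (unadjusted p = 0.0524 in limma). At the next dose, 3 mg/kg, the Npy difference was 0.03, and at 0.3 mg/kg it was 0.05. A single rat at 100 mg/kg permethrin had the highest Npy value of the series, 11.55.

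Vip was the dimmest and, after Gad2, the most variable member. In vehicle rats it ranged from 7.94 to 9.44 with a median of 8.92. Over the deltamethrin doses, low to high, the Vip medians were 9.09, 8.81 and 9.01. Over the permethrin doses they were 8.94, 8.83 and 9.01. Means were above vehicle at 3 doses and below it at 3, from -0.08 at 1 mg/kg permethrin to 0.22 at 0.3 mg/kg deltamethrin. The SE of each Vip difference was 0.16, and the 95% confidence intervals over the doses reached from -0.40 to 0.53. At 100 mg/kg permethrin the Vip difference was 0.18, against 0.01 within array set A and 0.28 within array set B (limma adjusted p = 1). Over the doses the Vip differences ran from -0.38 to 0.36 within set A and from 0.05 to 0.28 within set B.

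Cck, the brightest member, had a narrow range. In vehicle rats its lowest, median and highest values were 12.58, 12.79 and 13.04. The medians over the permethrin doses were 12.79, 12.89 and 12.91, low to high, and over the deltamethrin doses 12.84, 12.86 and 12.86. At 100 mg/kg permethrin the Cck values ran from 12.75 to 13.03, inside the range of the vehicle rats. The Cck difference at 100 mg/kg permethrin was 0.10 (SE 0.04, 95% confidence interval 0.01 to 0.19), or 1.07-fold, with an unadjusted p of 0.0360 and an adjusted p of 1.00 in limma, and 6 of 8 rats exceeded the mean of the vehicle rats. At 10 mg/kg permethrin it was 0.08 and at 1 mg/kg -0.01. The difference at 100 mg/kg was 0.12 within array set A and 0.06 within array set B. At 10 mg/kg it was 0.20 within set A (limma adjusted p = 0.462) and -0.01 within set B.

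Pvalb, which marks the fast-spiking basket and chandelier cells, had the largest mean differences beside Vip. Vehicle rats ranged from 9.33 to 10.48, with a median of 9.82. Low to high, its medians were 9.94, 9.99 and 9.93 for deltamethrin, and for permethrin 9.95, 9.99 and 9.84. All dose groups overlapped vehicle, with a lowest value of 9.51 and a highest of 10.78. The mean stood above vehicle at 6 of 6 doses, by 0.10 at 100 mg/kg permethrin to 0.25 at 10 mg/kg permethrin (SE 0.15, 95% confidence interval -0.05 to 0.56, limma adjusted p = 0.961).

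**Figure D2:**
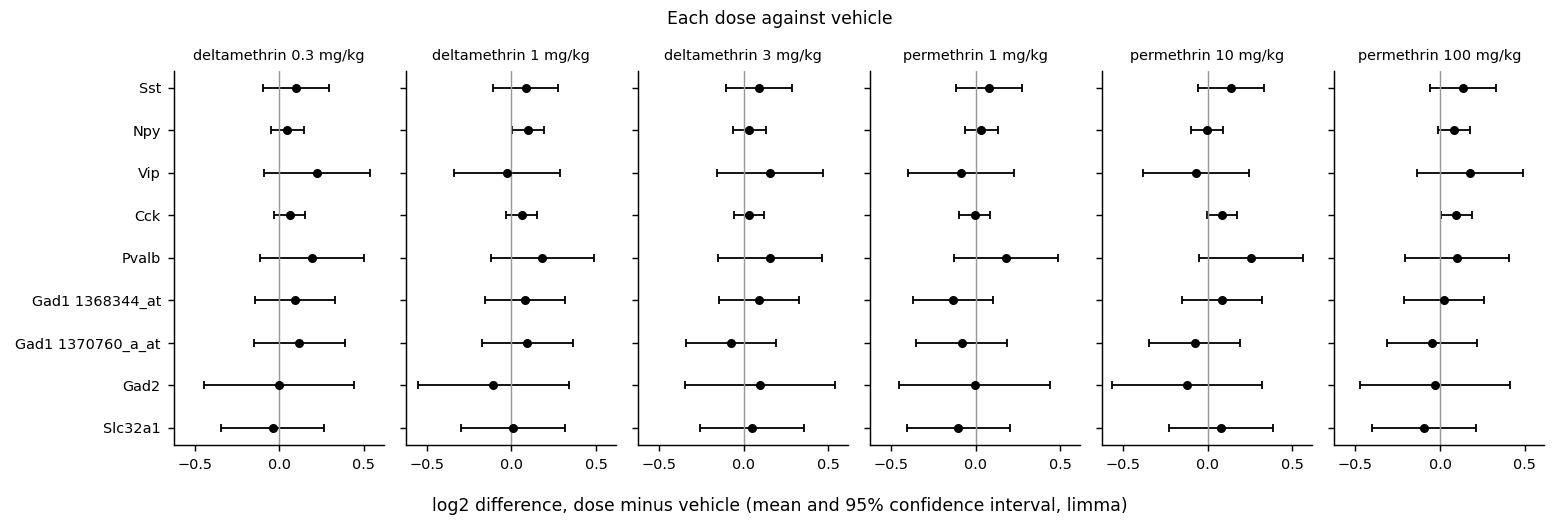
Log2 difference of each member probe set at each dose minus vehicle, with the 95% confidence interval from limma; the vertical line is 0. Intervals are narrowest for Npy and Cck and widest for Gad2, and only those of Npy at 1 mg/kg deltamethrin and Cck at 100 mg/kg permethrin lie above 0.

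The comparison of Sst and Pvalb with vehicle depended on how the array sets were treated. Both were higher in set A than in set B, and vehicle had the larger share of set A rats. With the set as a block, the Sst difference was 0.12 to 0.18 over the 6 doses and that of Pvalb 0.17 to 0.32. At an unadjusted p under 0.05, 5 of 6 doses then passed for Sst and 5 of 6 for Pvalb, against 0 of 6 for each without the block. Gad1 (1368344_at) at 1 mg/kg permethrin, by -0.18, and Cck at 100 mg/kg permethrin, by 0.09, also passed. In that fit the share of all probe sets past the same threshold was, low to high dose, 1.5%, 6.26% and 3.07% for deltamethrin and 3.18%, 9.65% and 2.54% for permethrin. None passed after adjustment, and the lowest adjusted p of both genes was 0.513, at 10 mg/kg permethrin. Within set A the Sst differences ran from 0.07 to 0.26, and within set B from 0.05 to 0.14. The Pvalb differences ran from 0.13 to 0.41 within set A and from 0.16 to 0.25 within set B. All 24 of these within-set values were above 0, and those of each set rest on the same 6 vehicle rats. With the replicate number as a block instead, Sst at 1 and 3 mg/kg deltamethrin and at 1 mg/kg permethrin and Pvalb at 100 mg/kg permethrin were below vehicle, by -0.0084, -0.0023, -0.012 and -0.033 (limma adjusted p from 0.971 upward). This block sets vehicle replicates 4 to 6, of array set A, beside dose replicates of those numbers, of set B. Both genes were higher in set A, so this fit does not separate dose from array set.

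**Figure D3:**
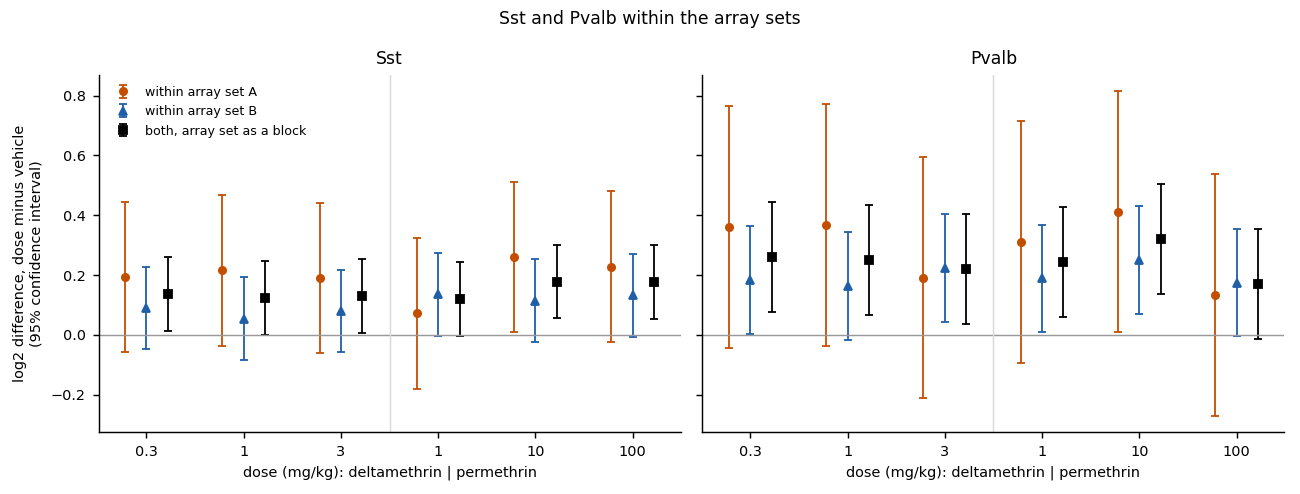
Log2 difference of Sst (left) and Pvalb (right) at each dose minus vehicle, within array set A (circles), within array set B (triangles) and over both with the set as a block (squares), with 95% confidence intervals from limma. Points lie above 0 throughout, at 0.07 to 0.26 (Sst) and 0.13 to 0.41 (Pvalb) in set A, and the intervals of set A are wider than those of set B.

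The GABA-synthesizing enzymes gave no call either, and their groups overlapped. Gad1 encodes the enzyme that makes most of the GABA of the brain, and Gad2 the form held at synaptic vesicles. The brighter Gad1 probe set had a lowest, median and highest value of 11.56, 11.92 and 12.36 in vehicle rats. Its medians at rising doses were 12.10, 12.12 and 12.06 for deltamethrin, and for permethrin 11.94, 12.05 and 12.07. The mean was below vehicle at 1 mg/kg permethrin, by -0.14 (SE 0.12, limma adjusted p = 1.00), and 0.02 to 0.09 above it at the other doses. Within array set A the difference at 1 mg/kg permethrin was -0.35 and within set B -0.06, and with the set as a block it was -0.18. At 100 mg/kg permethrin it was -0.02 with the set as a block, the opposite sign to the pooled 0.02. The lowest Gad1 value of the series, 11.12, was a rat of that permethrin group. The second Gad1 probe set had the same sign as the first at 3 of the 6 doses and the opposite sign at 3, so no direction of Gad1 is given for 3 mg/kg deltamethrin or for 10 and 100 mg/kg permethrin.

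Gad2 was the least precise member. Vehicle rats ranged from 8.49 to 9.91 around a median of 9.31, and the dose medians lay between 9.27 and 9.43. Its differences from vehicle ran from -0.12 at 10 mg/kg permethrin to 0.10 at 3 mg/kg deltamethrin, each with an SE of 0.22. The 6 confidence intervals together reached from -0.57 to 0.54. Within array set A the Gad2 differences reached larger sizes than the pooled ones. At the doses given next, the sign differed between the sets, and these contrasts between the sets were not tested. At 10 mg/kg permethrin the difference was -0.59 within array set A and 0.05 within array set B, and at 3 mg/kg deltamethrin 0.32 within set A and -0.14 within set B. Over the doses the Gad2 differences ran from -0.59 to 0.32 within set A, from -0.14 to 0.05 within set B, and from -0.20 to 0.02 with the set as a block. Slc32a1, which loads GABA into synaptic vesicles, ranged from 9.90 to 11.19 in vehicle rats, with a median of 10.43. The dose medians were 10.33 to 10.57 and the differences -0.10 to 0.08 (SE 0.15). With the set as a block the Slc32a1 differences were -0.04 to 0.14, within set A -0.17 to 0.17 and within set B -0.01 to 0.20. For each member, the 7 group means were also put in order, and none of the 6 gaps between neighbours reached 1 SD of the groups concerned.

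No member passed the test for a dose trend. The regression of SAM (Significance Analysis of Microarrays), which divides the slope on dose by its standard error plus a penalty and estimates a false discovery rate from 100 permutations of the doses, gave no member a q under 0.1. The lowest member q was 0.944 for deltamethrin and 0.905 for permethrin. By the same rule SAM called 0.0515% of all probe sets for deltamethrin and 0.0483% for permethrin. For deltamethrin the member highest in size of score was the second Gad1 probe set (score -0.64), at place 6719 of 31042. For permethrin it was Vip (score 0.88), at place 211, with an empirical permutation p of 0.0543, followed by Cck at place 1145 (score 0.59). Slc32a1 had the lowest permethrin score, -0.33. The order of Vip and Cck depended on the setting. Without the penalty Cck led the members at place 333, with Vip at place 1260. On the rank of the dose they stood at places 607 and 7201. With probe sets of a mean log2 under 6 left out, Vip led again, at place 166 of 21870.

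The compounds were compared directly at the 1 dose they share and at the doses of equal rank. At 1 mg/kg, Gad1 (1368344_at) averaged 12.03 ± 0.26 in deltamethrin rats and 11.81 ± 0.37 in permethrin rats (SD, n = 8 each). The difference, deltamethrin minus permethrin, was 0.22 (SE 0.13, 95% confidence interval -0.04 to 0.48, limma adjusted p = 1.00). That of Npy at this dose was 0.06 and that of Sst 0.00, with intervals of -0.04 to 0.17 and -0.21 to 0.22. The other 3 comparisons set doses that differ in mg/kg side by side, 0.3 against 1, 1 against 10 and 3 against 100 mg/kg. By the paper's behavioural levels, the first pair lies below the no-effect dose and the second at it, so both are matched. The third pair is not matched. At 1 mg/kg, deltamethrin is at its no-effect dose and permethrin below its own, so this comparison is not matched in behaviour either. Over the 4 comparisons and 9 probe sets, 0 of 36 member values passed at an adjusted p under 0.05 and 0 at an unadjusted p under 0.05. Over all probe sets the shares were 0% after adjustment, and before it 2.73% at 1 mg/kg and 2.41%, 1.02% and 0.802% at the other 3 pairs of doses. With the array set as a block, Gad1 (1368344_at) passed before adjustment at 1 mg/kg (0.22, unadjusted p = 0.0232, adjusted p = 1.00 in limma) and for 0.3 mg/kg deltamethrin against 1 mg/kg permethrin (0.23, unadjusted p = 0.0172, adjusted p = 0.872 in limma). Both differences rest on the same 8 permethrin rats. In that fit the shares of all probe sets before adjustment were 4.5% at 1 mg/kg and 4.01%, 1.66% and 1.22% at the other 3 pairs of doses. The widest member interval at 1 mg/kg was that of Gad2, -0.59 to 0.39, so these values do not show that the compounds act alike.

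Beside the treatment, the members differed in how much of their variance went with the array set. The treatment group accounted for 1.97% (Gad2) to 15.1% (Cck) of a member's variance, with a median of 5.73% over all probe sets. The array set accounted for 57.8% of the variance of Slc32a1, 57.3% of Pvalb, 54.9% of Sst, 45.3% of Gad1 (1368344_at) and 37.2% of Gad2, with a median of 12.2% over all probe sets. It accounted for 0.201% of the variance of Npy, 2.25% of Cck and 5.66% of Vip. The sets were found from the same arrays, so their differences are described without a test, and the cause of the sets was not tested.

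Pvalb, Slc32a1 and Sst were higher in set A. Pvalb ranged from 9.61 to 10.78 with a median of 10.44 in set A, and from 9.33 to 10.05 with a median of 9.82 in set B, a mean difference (A minus B) of 0.51. Slc32a1 had medians of 10.88 in set A and 10.28 in set B, a difference of 0.51, and Sst 11.29 in set A and 10.95 in set B, a difference of 0.31. Gad2 and Gad1 stood the other way. Gad2 had medians of 8.96 in set A and 9.49 in set B, a difference of -0.59 that was larger in size than that of 94.9% of probe sets. Gad1 (1368344_at) had medians of 11.80 in set A and 12.14 in set B, a difference of -0.35, and its second probe set differed by -0.08. Vip differed by -0.17, Cck by -0.03 and Npy by -0.01, against a median size of 0.12 over all probe sets. Gad2 and the brighter Gad1 probe set thus differed between the sets in the direction opposite to Slc32a1. The second Gad1 probe set differed by less than the median size over all probe sets.

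**Figure D4:**
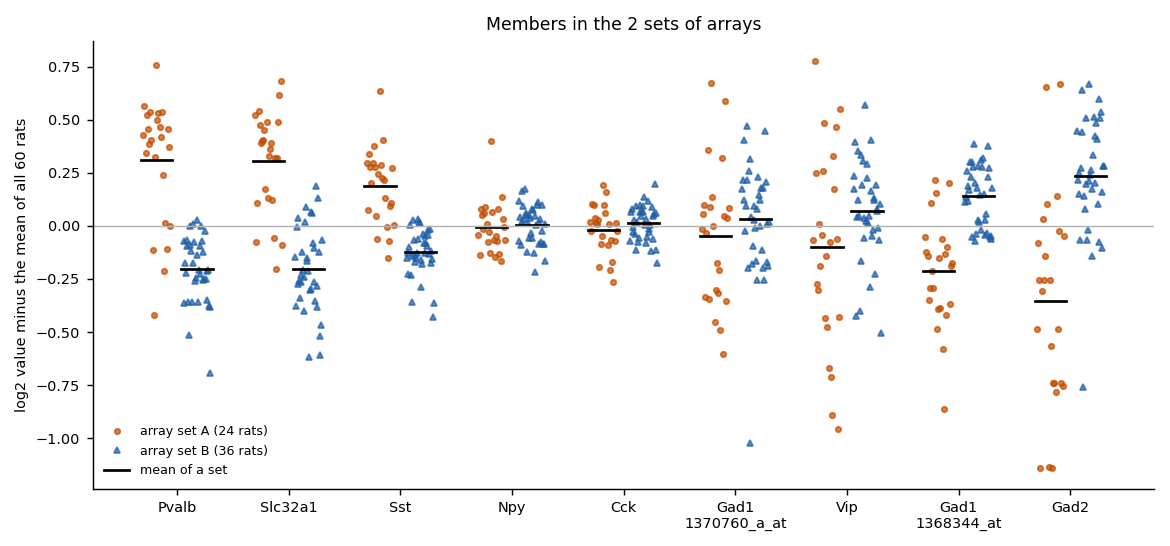
Log2 value of each member probe set in each rat minus its mean over 60 rats, for array set A (circles, 24 rats) and array set B (triangles, 36 rats), with horizontal lines at the set means. Members are ordered from the largest positive difference between the sets (Pvalb, 0.51) to the largest negative one (Gad2, -0.59), and Npy and Cck lie near 0 in both.

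The members were then correlated over rats within each set, after the mean of each treatment group in that set was taken off. Of 28 gene pairs in 2 sets, 56 relations, 21 had a permutation p (100000 permutations, two-sided) under 0.05 after Benjamini-Hochberg adjustment, 13 in set A and 8 in set B. Values were permuted over all rats of a set, with no allowance for the group means taken off. The permutation p-values, here and in the correlations below, are therefore too small, and the counts that pass may be too high. The called relations, 46.4% of 28 in set A and 28.6% of 28 in set B, had an r of at least 0.53 and 0.40 in size. With all other probe sets, the members reached those sizes in 37.1% and 23.1% of relations, so such values were common on these arrays. Both sets held 6 of the 28 pairs, of which 5 were positive. The sign was the same in both sets for 22 of 28 pairs. The pairs of one array share its RNA, labelling and hybridization.

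The positive relations that passed in both sets joined Sst, Pvalb and Cck on one side, and Gad2 with Gad1 and with Vip on the other. Sst and Pvalb had r = 0.79 and rho = 0.56 in set A (adjusted permutation p = 0.000373 and 0.0187) and r = 0.56 and rho = 0.49 in set B (adjusted permutation p = 0.00286 and 0.0128). Without the 2 rats farthest from the Sst median, r was 0.59 in set A and 0.57 in set B. Cck and Pvalb had r = 0.66 and rho = 0.58 in set A (adjusted permutation p = 0.00286 and 0.0149) and r = 0.72 and rho = 0.67 in set B (adjusted permutation p = 0.00028 and 0.000747), and r without the 2 farthest rats was 0.56 and 0.65. Sst and Cck had r = 0.68 and rho = 0.62 in set A (adjusted permutation p = 0.00286 and 0.00995). In set B they had r = 0.44 (adjusted permutation p = 0.0199) but rho = 0.28 (adjusted permutation p = 0.196), and r without the 2 farthest rats was 0.55 in set A and 0.35 in set B.

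Gad1 and Gad2 had r = 0.84 and rho = 0.80 in set A (adjusted permutation p = 0.00028 and 0.00056) and r = 0.56 and rho = 0.50 in set B (adjusted permutation p = 0.00286 and 0.0124), with r = 0.80 and 0.46 without the 2 farthest rats. Vip and Gad2 had r = 0.67 and rho = 0.75 in set A (adjusted permutation p = 0.00286 and 0.000747) and r = 0.53 and rho = 0.58 in set B (adjusted permutation p = 0.00381 and 0.00358), with r = 0.60 and 0.62 without the 2 farthest rats. Pvalb and Gad2 ran against each other, with r = -0.55 and rho = -0.67 in set A (adjusted permutation p = 0.0171 and 0.00523), and in set B r = -0.41 (adjusted permutation p = 0.0378) and rho = -0.34 (adjusted permutation p = 0.111). Without the 2 farthest rats this r was -0.66 and -0.41. Gad2 and Slc32a1, synthesis and packaging of the same transmitter, had r = -0.18 in set A and 0.05 in set B (rho = -0.22 and -0.01, adjusted permutation p = 0.493 and 0.758 for r, 0.429 and 0.937 for rho, and r = -0.23 and 0.11 without the 2 farthest rats). Gad1 and Slc32a1 had r = 0.19 and rho = 0.19 in set A (adjusted permutation p = 0.462 and 0.477) and r = 0.50 and rho = 0.45 in set B (adjusted permutation p = 0.0078 and 0.0214), with r = 0.19 and 0.45 without the 2 farthest rats.

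**Figure D5:**
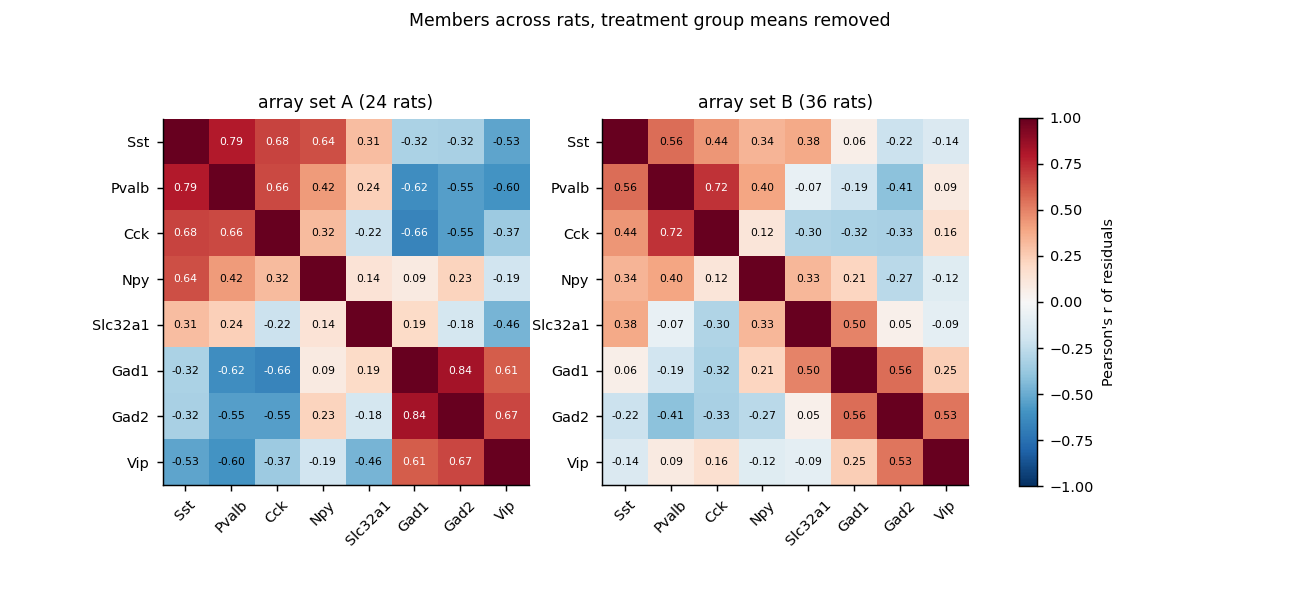
Pearson's r between members over the 24 rats of array set A (left) and the 36 rats of array set B (right), after the means of the treatment groups were taken off; red is positive and blue negative. In both sets Sst, Pvalb and Cck form a positive corner (0.44 to 0.79) and Gad1 and Gad2 another (0.84 in set A and 0.56 in set B).

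The first component of all arrays accounted for a median of 31.5% of the variance over all probe sets, so following it was common. Its share in Gad2 was larger than in 83% of probe sets, and in Vip than in 75.4%. For Gad1 (1368344_at) this was 73.6%, for Pvalb 72.2%, for Sst 65.6% and for Cck 17.5%. Vip, Gad1 and Gad2 followed the component in both sets, and Sst, Pvalb and Cck passed in set A only, a difference between the sets that was not tested. Within each set, and with 16 relations tested, Vip had r = -0.92 (rho = -0.93) with it in set A and -0.75 (rho = -0.77) in set B, each with an adjusted permutation p of 5.33e-05 for both measures, and r = -0.90 and -0.71 without the 2 farthest rats. Gad2 had r = -0.78 (rho = -0.78, adjusted permutation p = 8e-05 for both) in set A and -0.84 (rho = -0.78, adjusted permutation p = 5.33e-05 for both) in set B, and -0.73 and -0.75 without the 2 farthest rats. Gad1 had r = -0.75 (rho = -0.65, adjusted permutation p = 0.000187 and 0.00243) in set A and -0.52 (rho = -0.48, adjusted permutation p = 0.00186 and 0.00586) in set B, and -0.62 and -0.43 without the 2 farthest rats. Pvalb had r = 0.76 (rho = 0.80, adjusted permutation p = 0.000187 and 9.6e-05) in set A, 0.71 without the 2 farthest rats, but 0.23 (rho = 0.24, adjusted permutation p = 0.220 for both) in set B, and 0.06 there without those 2. Sst had r = 0.62 (rho = 0.60, adjusted permutation p = 0.00186 and 0.00519) in set A and 0.23 (rho = 0.24, adjusted permutation p = 0.220 for both) in set B, and 0.51 and 0.06 without the 2 farthest rats. Cck had r = 0.53 (rho = 0.49, adjusted permutation p = 0.0124 and 0.0300) in set A and 0.23 (rho = 0.19, adjusted permutation p = 0.220 and 0.331) in set B, and 0.41 and 0.06 without those rats. For Npy r was 0.16 in set A and 0.15 in set B (rho = 0.17 and 0.12, adjusted permutation p = 0.491 and 0.426 for r, 0.477 and 0.507 for rho, and r = 0.19 and 0.04 without the 2 farthest rats). When the first component was taken off as well, 11 of the 56 member relations passed in place of 21, and 2 pairs passed in both sets in place of 6. Sst with Pvalb then had r = 0.62 in set A and 0.53 in set B (adjusted permutation p = 0.00992 and 0.00840), and rho = 0.59 and 0.36 (adjusted permutation p = 0.0324 and 0.109). Gad1 with Slc32a1 had r = 0.78 and 0.55 (adjusted permutation p = 0.00028 and 0.00616), and rho = 0.73 and 0.53 (adjusted permutation p = 0.00168 and 0.0147). Vip with Gad2 had r = -0.20 and -0.27 and rho = -0.26 and -0.28 (adjusted permutation p = 0.468 and 0.224 for r, 0.360 and 0.204 for rho). Without the 2 farthest rats r was 0.46 and 0.43, 0.69 and 0.47, and -0.21 and -0.26 for these 3 pairs in sets A and B. Gad1 with Gad2 had r = 0.61 and 0.25 (adjusted permutation p = 0.0155 and 0.237), and rho = 0.47 and 0.20 (adjusted permutation p = 0.109 and 0.371). Pvalb with Gad2 had r = 0.09 in set A and -0.41 in set B (adjusted permutation p = 0.760 and 0.0548), and rho = -0.04 and -0.36 (adjusted permutation p = 0.913 and 0.109). Without the 2 farthest rats r was 0.28 and 0.19 for the first of these pairs and -0.10 and -0.29 for the second.

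Means of the markers of other cells were correlated with the members in the same way. The mean of 7 of 7 microglial markers ranged from 8.08 to 8.86 in set A and from 8.12 to 8.47 in set B. In set A its r was -0.89 with Vip, 0.73 with Pvalb, -0.72 with Gad1 and -0.62 with Gad2 (rho = -0.87, 0.75, -0.60 and -0.60, adjusted permutation p of r = 0.00028, 0.00028, 0.00112 and 0.0102, of rho 0.00056, 0.0014, 0.0209 and 0.0218), and r without the 2 farthest rats was -0.85, 0.70, -0.59 and -0.52. In set B it was 0.32 with Pvalb (rho = 0.29, adjusted permutation p = 0.186 and 0.223, r = 0.20 without the 2 farthest rats). There it was -0.45 with Vip, -0.56 with Gad1 and -0.55 with Gad2 (rho = -0.46, -0.56 and -0.45, adjusted permutation p of r = 0.0341, 0.00347 and 0.00438, of rho 0.0314, 0.00672 and 0.0377, and r without the 2 farthest rats -0.39, -0.56 and -0.38). The mean of 7 of 7 astrocyte markers, at 10.87 to 11.31 in set A and 11.02 to 11.32 in set B, had r = 0.47 with Gad1 in set A (rho = 0.50, adjusted permutation p = 0.0884 and 0.0737, r = 0.42 without the 2 farthest rats) and 0.76 in set B (rho = 0.77, adjusted permutation p = 0.00028 and 0.00056, r = 0.68 without the 2 farthest rats). The mean of 9 of 10 markers of excitatory neurons, at 9.03 to 9.65 in set A and 9.10 to 9.46 in set B, had r = 0.80 with Vip in set A (rho = 0.75, adjusted permutation p = 0.00028 and 0.0014, r = 0.75 without the 2 farthest rats) and 0.44 in set B (rho = 0.34, adjusted permutation p = 0.0406 and 0.161, r = 0.29 without the 2 farthest rats). That of 9 of 10 striatal markers, at 8.12 to 9.82 in set A and 9.02 to 9.69 in set B, had r = 0.64 with Slc32a1 in set A (rho = 0.59, adjusted permutation p = 0.00827 and 0.0266, r = 0.56 without the 2 farthest rats) and 0.30 in set B (rho = 0.34, adjusted permutation p = 0.214 and 0.161, r = 0.38 without the 2 farthest rats). The mean of 6 of 6 endothelial markers, at 8.82 to 9.20 in set A and 8.65 to 9.07 in set B, had r = -0.81 with Gad2 in set A (rho = -0.73, adjusted permutation p = 0.000448 and 0.00246, r = -0.77 without the 2 farthest rats) and 0.08 in set B (rho = 0.10, adjusted permutation p = 0.811 and 0.768, r = 0.18 without the 2 farthest rats). These are examples from 112 relations of 7 marker lists with 8 genes in 2 sets, of which 22 passed for r after adjustment, and the part of such markers in the member values was not tested. With all other probe sets, the members reached an r of 0.53 in size in 37.1% of relations in set A. In set B they reached 0.40 in 23.1%. An r of at least 0.53 in set A or 0.40 in set B was thus common on these arrays. No such share was taken at the larger sizes given above. Whether those are particular to cell markers was not tested. Across the dose groups, the mean microglial level ranged from 8.27 at 0.3 mg/kg deltamethrin to 8.40 at 1 mg/kg permethrin, with 8.34 in vehicle rats.

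The 2 Gad1 probe sets followed each other in set A (r = 0.80, rho = 0.68, adjusted permutation p = 2e-05 and 0.00074, r = 0.79 without the 2 farthest rats) and had a lower r in set B (r = 0.33, rho = 0.36, adjusted permutation p = 0.0467 and 0.0300, r = 0.19 without the 2 farthest rats). The difference between the sets in this r was not tested.

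Over 60 rats, after the mean of each treatment group in each set was taken off, the probe sets of other genes most like each member were listed by Pearson's r, as a description. Sst was most like Slc25a11 (0.81), Cops7a (0.80) and Lage3 (0.79), and Pvalb most like Tuba4a (0.84), Ubl7 (0.83) and Rtn4r (0.83). Npy had the lowest leading values, 0.62 for Hcfc1r1, 0.59 for Shisa4 and 0.59 for Psmb2, and Cck was most like Tspan17 (0.72), Lamp5 (0.72) and Fam131a (0.70). Vip was most like Zc3h14 (0.91), Ccng1 (0.90) and Snx7 (0.90), Gad1 like Meis2 (0.83), Ap1s2 (0.80) and Marcks (0.80), and Gad2 like Ddx3x (0.88), Appl1 (0.87) and Rab5a (0.86). Slc32a1 was most like Slc25a23 (0.74), Acly (0.71) and Pcbp2 (0.70). An r of at least 0.5 in size was reached with 49.4% of all probe sets by Vip, 38.6% by Gad2 and 34.5% by Gad1, but with 0.283% by Npy and 1.22% by Slc32a1.

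Other genes of the same cells and pathways gave 0 calls at an adjusted p under 0.05 in limma at any dose. At an unadjusted p under 0.05, with each gene at its brightest probe set and the 6 doses together, 4 values above and 2 below vehicle passed among 29 measured of 36 further interneuron genes, 3.45% of 174 values against 1.71% over all probe sets. They included Crh, the peptide corticotropin-releasing hormone, at 3 mg/kg deltamethrin (0.38, p = 0.000314, adjusted p = 1) and at 100 mg/kg permethrin (0.39, p = 0.000181, adjusted p = 0.803). Both values below vehicle were those of Erbb4, the neuregulin receptor of interneurons, by -0.16 at 3 mg/kg deltamethrin and -0.18 at 10 mg/kg permethrin. Among 12 of 13 receptors of the peptides 3 values above vehicle passed, 4.17% of 72, all of Sstr1, a somatostatin receptor, by 0.17 at 0.3 mg/kg and 0.21 at 1 mg/kg deltamethrin and 0.18 at 10 mg/kg permethrin. Among 9 of 12 genes of GABA uptake, breakdown and precursors none passed, Glul and Slc38a1 being the brightest. Among 9 of 10 genes of peptide processing and dense core granules 1 value passed, 1.85% of 54. It was that of Pam, which amidates peptides such as those of Npy, Vip and Cck, by -0.13 at 1 mg/kg permethrin. Among 13 of 15 genes induced by neuronal activity 5 values above and 8 below vehicle passed, 16.7% of 78 values against the same 1.71%. Examples are Fosb, by 0.52, and Bdnf, by 0.46, both at 100 mg/kg permethrin, and Egr1, by -0.33 at 1 mg/kg permethrin. For Bdnf the paper reports no effect of the compounds by qRT-PCR in other rats. It states that the qRT-PCR values were close to those of another Bdnf probe set, which was not dose-responsive. Of the marker lists, 1 value of excitatory neurons passed, 1.85% of 54, Camk2a by -0.53 at 1 mg/kg permethrin. Of striatal neurons 3 passed, 5.56% of 54, with 1 above vehicle at 3 mg/kg and 2 below it at 0.3 mg/kg deltamethrin. In the 0.3 mg/kg group the striatal mean ranged from 8.12 to 9.52, with a median of 9.38. Of astrocytes, oligodendrocytes, microglia, endothelial cells or choroid plexus and meninges 0 passed.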

How the data were processed

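The deposited values are log2 expression summaries that the authors made with RMA (background correction, quantile normalization and summary of the probes of a probe set), for 60 arrays with 1 rat each. No column was left out of the table for want of a sample. The genes and lists were chosen with earlier results of these data known. Symbols came from the platform annotation. All member probe sets are named, the brightest leads for a gene, and from each list the 2 genes with the lowest unadjusted p over the 6 doses and the 2 brightest could be named. Array sets were found by k-means on the first 2 principal components (scikit-learn 1.9.0). Doses and compounds were compared in 1 limma fit of all 60 arrays (limma 3.58.1, R 4.3.3), with eBayes (constant prior) and p-values adjusted after Benjamini and Hochberg over 31042 probe sets. SAM was written in Python 3.11.15 with numpy 2.4.6 after the description in the methods. Its penalty was chosen by the spread of the scores, with 36 arrays per compound. The scripts were tested on simulated data. Each array is 1 rat, and per the methods the arrays come from both of the first cohorts, dosed on separate days, to which no label assigns a rat. Arrays have no read depth, and the number of rats limits the precision. Probe sets were not placed on a genome, and promoter stretches are RefSeq's. The isotonic regression, the qRT-PCR and the cell culture data of the study were not analysed here. Alternatives changed the array sets, a component, the pairing, scaling, filter, arrays and variance prior.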

Additional observations from a re-analysis of the deposited data

Results flagged for a closer look

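The value of 1 rat stood apart from its group. Npy in replicate 3 at 100 mg/kg permethrin (array set A) was 11.55, against 11.23 in the next rat and 11.02 in the lowest of the 8. The gap to the next rat was 0.607 of the range of the group, above Dixon's critical value for 8 rats. Of 54 groups checked, 9 probe sets at 6 doses, this was the 1 that passed, and chance alone gives about 1 in 20. Without this rat the difference of Npy at 100 mg/kg permethrin from vehicle was 0.03 (SE 0.04, limma adjusted p = 1), against 0.08 with it.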

How the results depend on the processing

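The count of members past the threshold was 0 in all 6 comparisons with vehicle and all 4 between compounds, under 11 alternatives and with each of the 60 arrays left out in turn (lowest 0, highest 0), and 0 for both dose trends under 8 alternatives. The smallest member p after limma adjustment was 0.288 (Vip at 100 mg/kg permethrin, array sets as a block with the first component as a covariate, an alternative chosen after seeing the data). With the replicate block, 0 members passed, and the smallest adjusted p was 0.519 (Slc32a1 at 1 mg/kg permethrin). No source says that a number marks a shared batch, and the correlation of deviations was not over 0.1 for every pair, so the numbers were not taken to pair the rats. Over 168 pairs of arrays with the same number it ran from -0.819 to 0.899, median 0.369, with 112 over 0.1, against a median of 0.00657 and 591 of 1368 over 0.1 for other numbers. Dose rats of one number lie in one array set. Vehicle rats 4 to 6 lie in set A, while dose rats of those numbers lie in set B. Of 60 arrays, 17 correlated best with their own number. With the first component taken off, 11 correlations of members passed in place of 21 (20 by Spearman, 21 with the mean of all probe sets). Of 594 alternative values of the 54 differences from vehicle, 53 changed sign, 15 of them of Gad2, none past the threshold. Npy at 1 mg/kg deltamethrin was 0.07 to 0.12 above vehicle, with an unadjusted p under 0.05 in 2 of 11 alternatives and 22 of 60 fits without 1 array. Cck at 100 mg/kg permethrin was 0.06 to 0.12 above it, with 7 of 11 and 51 of 60. Over all probe sets, at 3 mg/kg deltamethrin 3 passed with the array sets as a block, 5 with the first component, 11 with both, and 1 each with centred arrays and with the filter on dim probe sets, against 0. SAM called 8 to 25 probe sets in place of 16 for deltamethrin and 9 to 14 in place of 15 for permethrin. The 12 vehicle rats and 8 rats per dose limit what can be detected.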
